A study of Mus musculus with 16 samples.

Results

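Coding sequence (CDS) tags are the RNA tags of RNA–chromatin pairs that the deposited tables assign to a protein-coding RNA (pcRNA) and to a stretch that is translated in at least 1 annotated isoform. They were chosen by these annotation columns alone and not by any measured value. They numbered 110083 of 2720242 significant pairs, with 54394 of 1305107 for Input and 55689 of 1415135 for H3K27me3-RADIP. The pairs came from RADIP, in which RNA ends are ligated to nearby chromatin DNA by way of a bridge adaptor and the ligated complexes are pulled down with an antibody to histone H3 trimethylated at lysine 27 (H3K27me3). The cells were mouse embryonic stem cells (mESCs) of the single line PGK12.1, and both groups were fixed with 1% formaldehyde and had no genetic change or drug. Input was an aliquot of the same sonicated lysate, kept back before the antibody was added, so both groups came from shared preparations. The labels list 8 libraries for each of the 2 conditions and the methods give 4 biological replicates, but the authors merged them into 1 table per condition, so no replicate error can be given and each test compares those 2 merged libraries, not the conditions.

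A gene is copied into a pre-mRNA with exons and introns. The spliceosome removes the introns and joins the exons, which can begin while the gene is still being copied. The coding sequence is the part of the joined exons that ribosomes read. An RNA held at chromatin can be a pre-mRNA still being made, a partly spliced RNA or a finished mRNA, and a coding tag alone does not tell these apart. A tag that runs far enough from an exon into its intron comes from RNA in which that intron is still present. An overhang of a few bases can also match the neighbouring exon of a spliced RNA. Tags that join 2 exons were not counted here. The methods describe alignment of the tags to the genome with BWA, which does not split a read at an intron.

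Every tag is listed as a window of 25 nucleotides (nt). Shown first are 5 coding positions among those used by the most pairs, because they show what a single measurement consists of. Not every chromosome was searched for these positions or for the edge-crossing windows below. The 5 positions are read from the mm10 genome in the direction of the RNA, with coding bases in capitals. They lie at chr1:34190205-34190229 (plus strand, *Dst*), chr4:123476095-123476119 (minus strand, *Macf1*), chr11:8492538-8492562 (minus strand, *Tns3*), chr19:23141962-23141986 (plus strand, *Klf9*) and chr7:134777405-134777429 (plus strand, *Dock1*).
Dst: ACAGTGAGGAATCCATGTCAGATGC
Macf1: GCTCTTGGGACTAAGGGATTCTCTG
Tns3: GTACAGCTTTGCCTCAGATGGGGAG
Klf9: CTCAACAAATACCGACCCATCCAGA
Dock1: GGGGCTGTTGAAGTGGAGATCCAAC
The *Dst* window was used by 27 pairs in Input and 25 in H3K27me3-RADIP, and these 52 pairs held 46 different DNA positions. The *Macf1* window was used by 15 and 26 pairs with 40 different DNA positions. For *Tns3* the counts were 15 and 22, for *Klf9* 20 and 15, and for *Dock1* 9 and 24. Each of these 5 sequences occurred at 1 place in the genome. Reuse at this level was rare, with 12 positions in Input and 18 in H3K27me3-RADIP used by at least 10 pairs. A single pair used 88.2% of the 47273 coding positions in Input and 84.4% of the 46548 in H3K27me3-RADIP. These are shares of positions and not of pairs.

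The next sequences cross an exon edge, with coding bases in capitals and intron bases in lower case. They were printed because they show how such a window lies across the edge. The letters are those of the mm10 genome at the listed window, not sequenced bases. They are among the edge-crossing windows used most often that occur at 1 place in the genome, and lie at chr8:110632162-110632186 (plus strand, *Vac14*), chr2:146485217-146485241 (minus strand, *Ralgapa2*), chr7:134753350-134753374 (plus strand, *Dock1*), chr14:118632173-118632197 (minus strand, *Abcc4*) and chr1:63551754-63551778 (plus strand, *Adam23*).
Vac14: CTCTATTGCCCTAGGCAAGgtatgt
Ralgapa2: ctcttttcagATAACGTGGATGCAA
Dock1: ttctttccccagTGATGGATGTGAC
Abcc4: tttattccagGCACTCCGGTTAAGT
Adam23: tcttcagGGTGTCCCACTCTCGAAA
The *Vac14* window leaves its exon at a donor site, so the first intron letters are gt. The other 4 enter an exon at an acceptor site, where the intron ends in ag. The *Vac14* window was used by 7 Input pairs and 15 H3K27me3-RADIP pairs, and the *Ralgapa2* window by 7 and 6. A *Nr2c2* window with 2 intron bases, used by 9 pairs in both libraries together, was not printed, while the *Adam23* window was used by 8. *Tns3*, *Klf9* and the genes of the edge-crossing windows were named after their values were seen.

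Amplified copies cannot be told from separate molecules in these tables. Pairs with the same RNA and DNA positions as an earlier one were 7.27% of the CDS pairs for Input and 10.6% for H3K27me3-RADIP, beside 6.79% and 9.74% of all pairs. All intervals are 95% intervals and cover counting error only. A count of 0 allows up to 3 pairs, which is 0.00552% of the CDS pairs of Input and 0.00539% of those of H3K27me3-RADIP. A pair is listed only where its RNA and 25-kb DNA bin passed an adjusted P-value of 0.1, so an RNA at 0 is one without a significant bin. Of 8 genes that mark embryonic stem cells, 5 were listed for Input and 6 for H3K27me3-RADIP. *Esrrb* had 63 and 53 CDS pairs, *Zfp42* had 27 and 17, and *Sox2* had 0 and 5, while *Pou5f1* and *Dppa4* were at 0 in both libraries.

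CDS tags were a small share of the interactome in both libraries. They made up 4.17% of all Input pairs (Wilson interval 4.13 to 4.2). The share among H3K27me3-RADIP pairs was 3.94% (3.90 to 3.97), a change of -0.233 percentage points (-0.279 to -0.186, 2-sided chi-square test on pairs, p = 2.39e-22). The share was lower in H3K27me3-RADIP on 20 of 20 chromosomes. Intron tags of pcRNAs made up 85.9% of all Input pairs and 86.1% of all H3K27me3-RADIP pairs. CDS tags were listed for 6873 of the 9288 pcRNA names of Input and for 6938 of the 9606 of H3K27me3-RADIP. Most of these RNAs had very few, with a median of 3 CDS pairs per RNA in each library, and 5280 RNAs had CDS pairs in both libraries. The 10 RNAs with the most supplied 5.70% of the CDS pairs of Input and 6.39% of those of H3K27me3-RADIP.

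The 10 RNAs with the most CDS pairs came from genes of 49.6 kb (*Rif1*) to 724.9 kb (*Exoc4*), with 2.74 kb (*Mcph1*) to 29.5 kb (*Dst*) of coding sequence. *Dst* (chr1:33908225-34308661), which encodes the cytoskeletal linker dystonin, had 695 CDS pairs in Input and 802 in H3K27me3-RADIP. *Macf1*, its relative that links microtubules to actin, had 519 and 555. *Ankrd11*, a nuclear regulator of transcription, had 324 and 471. These were the RNAs at the top in both libraries, and each had more CDS pairs in H3K27me3-RADIP. The counts are not scaled, and H3K27me3-RADIP also had more pairs in all, with 1415135 against 1305107. *Dido1*, which encodes a protein that reads methylated histone H3, had 227 and 296. The zinc finger gene *Zfp407* had 231 and 272, and *Mcph1*, which acts in chromosome condensation, had 229 and 267. *Kat6b*, a histone acetyltransferase, had 202 and 225, and *Dock1*, an activator of the small GTPase Rac, had 158 and 223. Only *Exoc4*, a subunit of the exocyst, and *Rif1*, a regulator of replication timing, had fewer CDS pairs in H3K27me3-RADIP among these 10. *Exoc4* had 267 and 229 and *Rif1* had 241 and 182. The intron pairs of *Rif1* were fewer as well, with 656 and 465, and those of *Exoc4* numbered 7164 and 7048. These RNAs differed widely in how much of their signal was coding. CDS tags made up 25.1% of the pairs of *Rif1* and 20.9% of those of *Dst* in Input, but 3.53% of those of *Exoc4*, whose gene spans 724.9 kb around 3.08 kb of coding sequence.

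**Figure D1:**
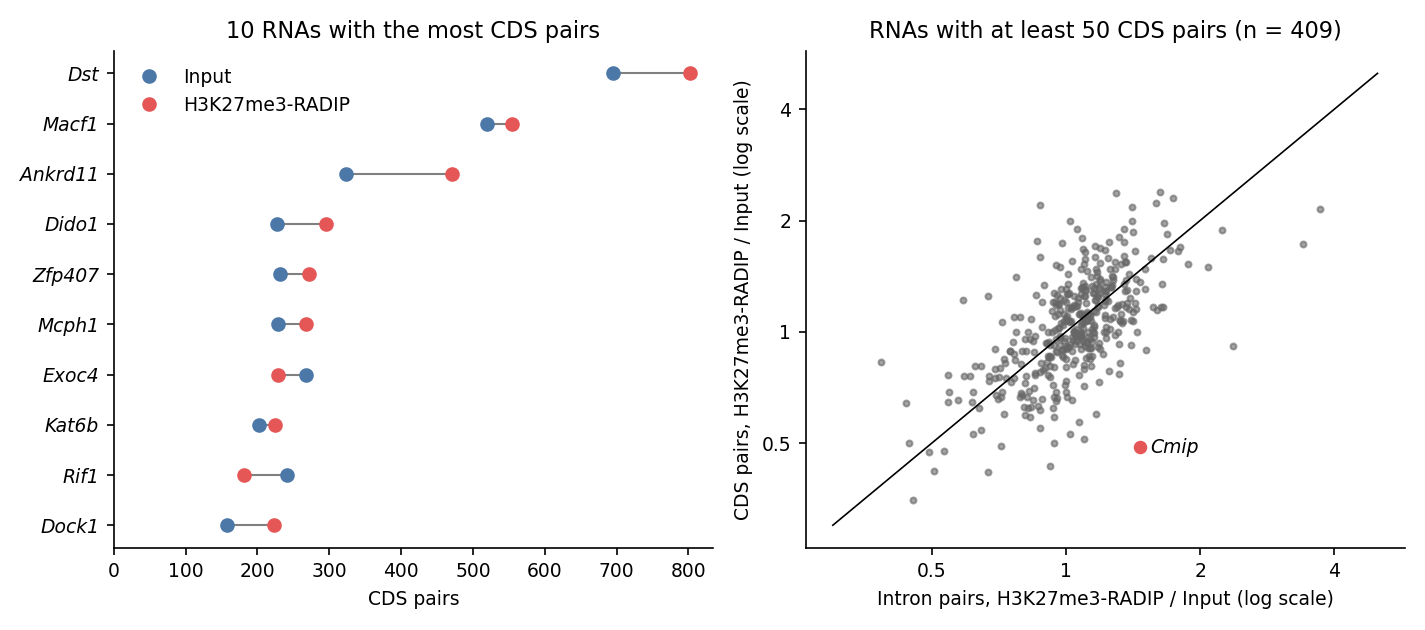
CDS pairs of the 10 RNAs with the most (left; each dot is 1 merged library) and, for the 409 RNAs with at least 50 CDS pairs, the ratio of H3K27me3-RADIP to Input pairs in coding sequence against that in introns (right; both axes logarithmic, 1 point per RNA, line of equal ratios drawn). *Dst* is at the top with 695 and 802 pairs, and *Cmip*, in red, is the only RNA in the right panel that passed the test of the CDS to intron ratio.

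In some of these RNAs a single long exon held a large part of the CDS tags. The exon with the most CDS tags was the 6.52-kb exon of *Ankrd11* at chr8:122889639-122896156, with 255 tags in Input and 374 in H3K27me3-RADIP. It held 79.1% of the CDS tags of *Ankrd11* and 76.5% of its coding length. A *Dst* exon at chr1:34177796-34183904 held 207 and 266 tags, and another at chr1:34187972-34193263 held 216 and 235. The exon of *Zfp407* that holds 69.1% of its coding length had 215 and 253 tags, or 93.0% of the CDS tags of that RNA. The *Macf1* exon at chr4:123471007-123476367 had 185 and 193 tags. Per kb of coding sequence these 5 exons held between 34.7 and 46.1 tags in Input and between 36.2 and 57.8 in H3K27me3-RADIP. The 1379 exons with at least 1 kb of coding sequence supplied 20.7% of all CDS tags, while 19838 of the 37938 exons with any CDS tag had 1. Exons are blocks merged over the isoforms of GENCODE M21, an older release than the authors used, in which 8533 of the 8534 gene identifiers were found.

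Per kb of annotated length, coding sequence was tagged more densely than introns of the same RNAs. Among RNAs with at least 10 CDS and 10 intron pairs and no other gene on the same strand, the CDS tags per coding kb were a median 1.63 times the intron tags per intron kb in Input (quartiles 1.24 and 2.30, 801 RNAs). In H3K27me3-RADIP the median was 1.58 (1.16 and 2.28, 799 RNAs). The ratio was above 1 for 87.5% of these RNAs in Input and for 83.6% in H3K27me3-RADIP. Because 10 CDS pairs were required, RNAs with few CDS tags were left out, and the ratio pooled over the 7877 RNAs without such an overlap, with no minimum, was 1.43 in Input and 1.36 in H3K27me3-RADIP. Among the 10 RNAs with the most CDS pairs the ratio was highest for *Zfp407*, with 9.18 and 10.2, and *Exoc4*, with 8.62 and 7.51, and lowest for *Dido1*, with 1.12 and 1.23. *Zfp407* and *Exoc4* each overlap another annotated gene on the same strand and so were not among the 801 and 799 RNAs above. For *Jarid2*, which encodes a subunit of Polycomb repressive complex 2, the ratio was below 1 in both libraries, at 0.801 and 0.777. The authors kept only uniquely mapped tags, while the lengths count every annotated base, also where a tag could not be placed uniquely. The part of this in the density was not tested. Base composition differed between the regions, and its part in the density was not tested. CDS tags held 53.5% G and C in Input and 54% in H3K27me3-RADIP, against 46.2% and 46.4% for intron tags of the same RNAs. The coding sequence of the tagged genes, weighted by their CDS pairs, held 52.1% and 53.0%.

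Tags were concentrated at the beginning of the coding sequence. In genes with at least 1000 nt of it, the first 10% of the coding sequence held 15.3% of the CDS tags in Input (Wilson interval 15.0 to 15.7) and 15.0% in H3K27me3-RADIP (14.7 to 15.3), where an even spread would give 10%. The share fell along the coding sequence to 7.99% (7.76 to 8.23) and 7.93% (7.70 to 8.16) in the last 10%. First coding exons held 5.83 tags per kb in Input (interval 5.70 to 5.96), internal ones 2.81 (2.78 to 2.84) and last ones 2.72 (2.64 to 2.81). In H3K27me3-RADIP these were 5.67 (5.54 to 5.80), 2.81 (2.78 to 2.84) and 2.85 (2.76 to 2.93). Along the gene, tag density was highest at its start. In 3373 genes of at least 30 kb, CDS density went from 4.98 tags per kb in the first 10% of the gene to 2.20 in the last 10% in Input, and intron density from 2.15 to 1.60. Most of the drop lay near the start. CDS density in Input was 3.84 in the second of 10 equal parts and between 2.08 and 2.54 from the third on, and intron density stayed between 1.67 and 1.78 from the second to the ninth. The ratio of both densities was 2.32 in the first 10% and 1.38 in the last 10%, and it was 2.17 and 1.31 in H3K27me3-RADIP. These densities are sums over many RNAs and are given as a description.

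**Figure D2:**
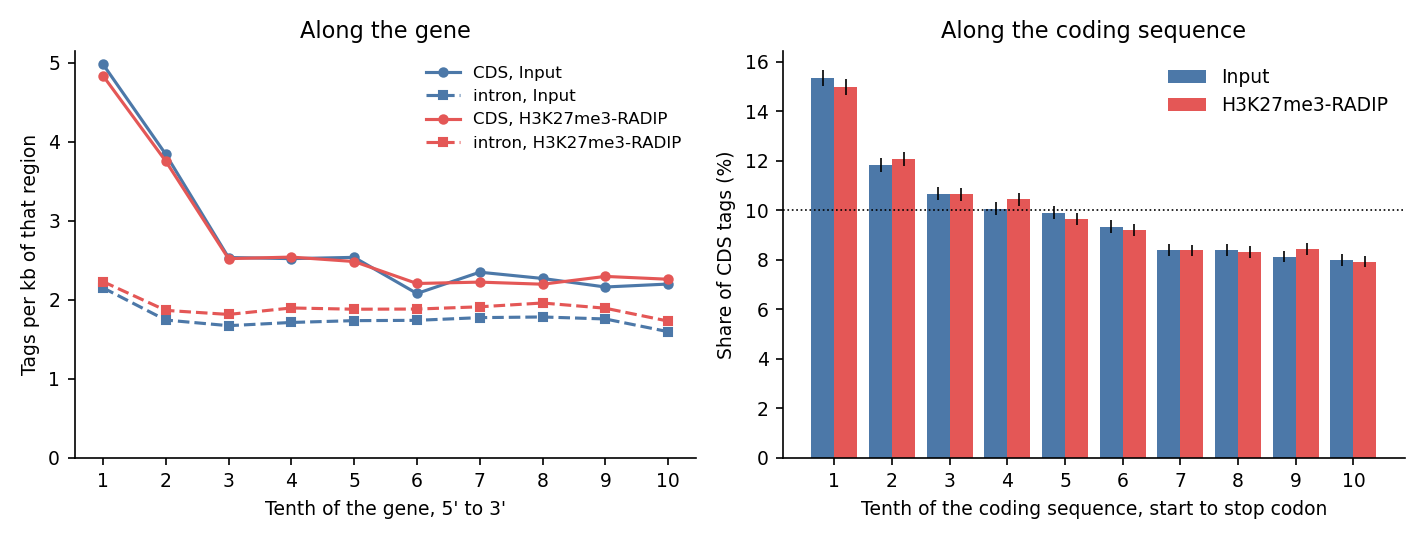
Density of CDS tags (circles, solid lines) and intron tags (squares, dashed lines) in 10 equal parts of 3373 genes of at least 30 kb (left, tags per kb of that region), and share of the CDS tags in 10 equal parts of the coding sequence (right, bars with 95% Wilson intervals; the dotted line marks 10%). In both libraries the first of the 10 parts of the coding sequence held about 15% of the tags and CDS density in Input was 4.98 tags per kb in the first part of the gene and 2.08 to 2.54 from the third on.

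Tags that cross from an exon into an intron were measured next. An overhang of any length was counted, and a short one does not by itself require the intron to be present. In Input, 5267 of the 54135 CDS tags centred in an annotated exon crossed an edge, or 9.73% (Wilson interval 9.48 to 9.98). In H3K27me3-RADIP it was 5636 of 55449, or 10.2% (9.92 to 10.4). Tags placed evenly within the same exons would cross in 9.76% and 9.72% of cases, so the observed share was 0.997 and 1.05 times that value. These tags came from 2476 and 2469 RNAs. Around the edges of 42268 internal coding exons of at least 120 nt, tags were counted by the position of their centre. Further inside the exon, 31 to 60 nt from its 3′ edge, there were 89.4 tags per nt in Input summed over these exons (interval 86.0 to 92.8). Within 12 nt of that edge, where every window crosses, there were 67.1 (62.5 to 71.9), or 0.751 times as many. At the 5′ edge the ratio was 0.915 in Input and 1.02 in H3K27me3-RADIP, and at the 3′ edge 0.823 in H3K27me3-RADIP. In the intron before the exon, 31 to 60 nt away, there were 39.6 tags per nt in Input (37.3 to 41.9), which was 0.470 times the density inside the exon. In the intron after the exon the ratio was 0.661. The intron before the exon was uneven, with 87.3 tags per nt at 23 to 28 nt from the exon in Input (80.0 to 95.1) and 28.1 at 33 to 40 nt (24.6 to 32.1). H3K27me3-RADIP had 84.5 tags per nt (77.3 to 92.2) and 30.8 (27 to 34.8) there. This peak was looked for after the profile was seen. After the exon the same 2 stretches held 56.7 and 63.8 tags per nt in Input, with no such peak.

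**Figure D3:**
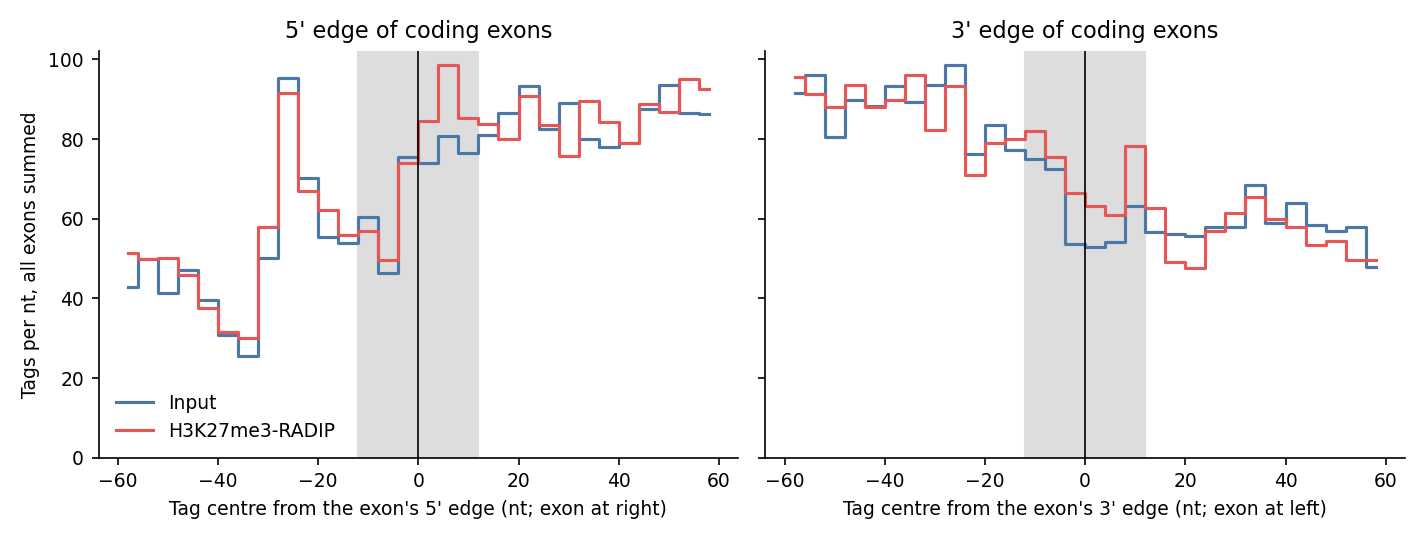
Tags per nt, summed over 42268 internal coding exons of at least 120 nt, by the distance of the tag centre from the 5′ edge (left) and the 3′ edge (right) of the exon, in steps of 4 nt for both libraries. Windows centred in the grey band cross the edge. Within 12 nt inside the exon, Input had 77.1 tags per nt at the 5′ edge and 67.1 at the 3′ edge, and a separate peak of 87.3 lies in the intron 23 to 28 nt before the exon.

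A few RNAs were mostly coding. Among RNAs with at least 10 pairs in a library, CDS tags were over 50% of the pairs for 45 of 7883 Input RNAs and for 48 of 8048 H3K27me3-RADIP RNAs, and 17 RNAs were in both lists (37.8% of the first and 35.4% of the second). These counts depended on the minimum and on the denominator, since 19 and 21 RNAs passed with at least 20 pairs, and 91 and 88 with the share taken over CDS and intron tags alone. The median gene length was 9.26 kb for the Input list and 8.87 kb for that of H3K27me3-RADIP, beside 47.3 and 46.9 kb for all RNAs with at least 10 pairs, and coding sequence was a median 30.6% and 34.2% of the gene beside 4.04% and 4.07%. Across 5359 RNAs with at least 50 pairs, the CDS share had a Spearman correlation of 0.77 with the coding share of the gene and of -0.45 with gene length, given as a description since both lengths come from the same annotation. In genes shorter than 10 kb, 17.1% of the pairs in Input were CDS, and in genes of 300 kb or more 2.14%. Just below the limit, 71 RNAs in Input and 92 in H3K27me3-RADIP had a CDS share from 40% to 50%.

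The highest CDS shares among RNAs with at least 50 pairs over both libraries belonged to these 10 RNAs. *Urb2*, which acts in ribosome biogenesis, had CDS tags for 68 of its 74 pairs in Input and 81 of 94 in H3K27me3-RADIP. *Armcx4*, an X-linked armadillo repeat gene, had 52 of 70 and 43 of 52. *Ttn*, which encodes the giant muscle protein titin and has 112.1 kb of annotated coding sequence, had 60 of 83 and 53 of 77. These 3 RNAs were over 68% coding in both libraries. *Rbm15*, a component of the RNA m6A methylation machinery, had 60 of 81 and 67 of 99, and *Srrm2*, a protein of nuclear speckles where splicing factors gather, had 141 of 233 and 145 of 263. *Jund*, an AP-1 transcription factor with no annotated intron, had 15 of 26 and 22 of 32, and the corepressor gene *Ctbp2* had 25 of 42 and 28 of 49. The interval of *Ctbp2* spanned 50% in both libraries (44.5 to 73.0 and 43.3 to 70.0), as did that of *Jund* in Input (38.9 to 74.5) and that of *Srrm2* in H3K27me3-RADIP (49.1 to 61.0). *Kmt2d*, a histone H3 lysine 4 methyltransferase, had 33 of 51 (64.7%, interval 51.0 to 76.4) and 57 of 114 (50%, 41 to 59.0). *Gtpbp6*, with 19 of 40 and 18 of 34, and *Prrc2a*, with 20 of 40 and 32 of 67, also had intervals that spanned 50% in both libraries.

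For some of these RNAs, intron tags within the gene were listed under another gene name. *Urb2* and *Ctbp2* had 0 intron pairs of their own in both libraries. The span of *Urb2* on its strand held 392 intron tags in Input and 503 in H3K27me3-RADIP that were listed under *Galnt2l*, a gene model that covers chr8:119910841-124345722. The span of *Ctbp2* held 7128 and 10299 tags listed under *Fgfr2*, whose model covers chr7:130162451-133123350. *Galnt2l* also held 314 and 361 tags in the span of *Acsf3* and 23 and 26 in that of *Cdt1*, which were mostly coding in at least 1 library. In the span of *Hic2*, 191 and 153 tags were under *Gm49573*, and in that of *Zbtb21*, 35 and 35 were under *C2cd2*. Of the RNAs that counted as mostly coding, 5 of 45 for Input and 4 of 48 for H3K27me3-RADIP had more tags in their span under another name than under their own. *Rbm15* and *Jund* had none under another name. *Acsf3*, *Cdt1*, *Hic2* and *Zbtb21* were named after their values were seen.

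**Figure D4:**
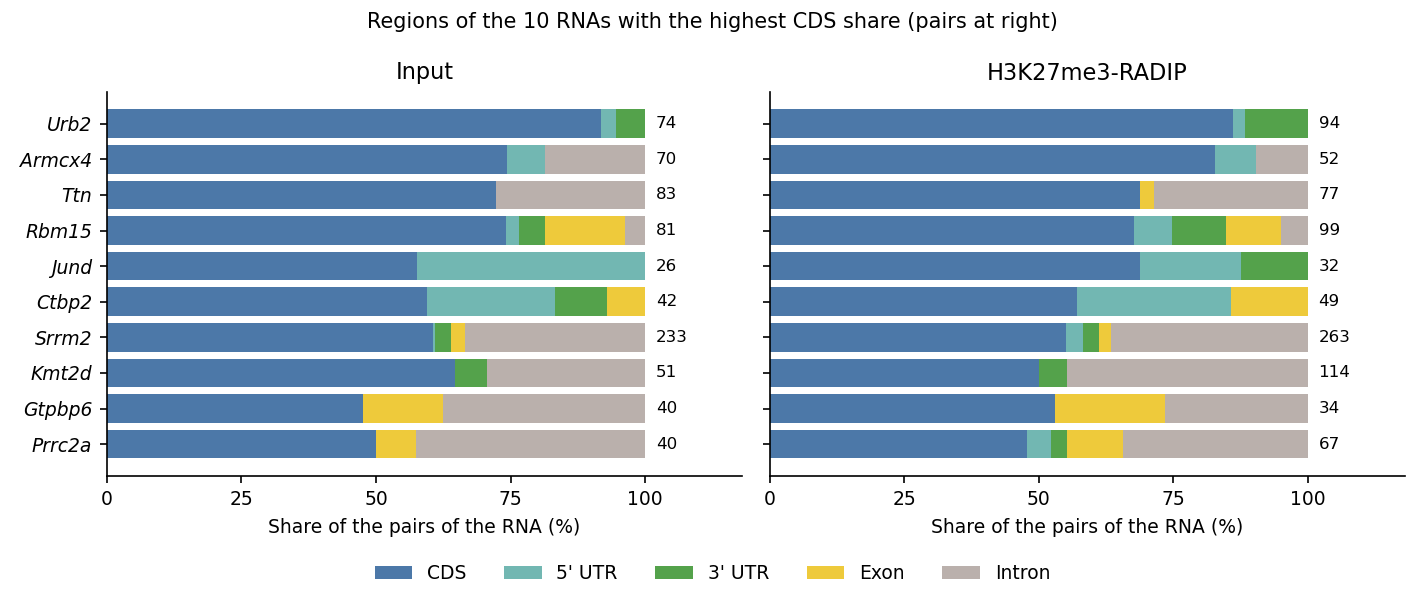
Regions of the RNA tags of the 10 RNAs with the highest CDS share, as a percentage of the pairs of each RNA in Input (left) and H3K27me3-RADIP (right), with the number of pairs at the right of each bar. "Exon" marks exons of isoforms that are not translated. *Urb2*, at the top, had 91.9% and 86.2% CDS tags and no intron tags.

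The CDS share was then taken for classes of genes, without a test between them, beside 4.31% of all pcRNA pairs of Input and 4.10% of those of H3K27me3-RADIP. Histone genes, which are short and mostly lack introns, had 83 CDS pairs of 172 (48.3%) and 63 of 135 (46.7%), from 8 of the 68 annotated genes. The linker histone genes *H1f1*, *H1f5* and *H1f3* had 27 and 18, 25 and 13, and 8 and 12 CDS pairs. Immediate early and short-lived mRNAs were 21.2% and 22.7% coding, led by *Mcl1*, a regulator of apoptosis, with 37 and 37 CDS pairs, the transcription factor gene *Egr1* with 21 and 45, and *Klf6* with 27 and 13. Abundant housekeeping mRNAs were 10.4% and 12.2% coding, with *Flna* at 45 and 77, *Ncl* at 49 and 44 and *Hnrnpu* at 46 and 44 CDS pairs. Zinc finger genes were 8.22% and 7.36% coding, and *Zfp462* and *Zfp292* followed *Zfp407* with 139 and 124 and with 99 and 83 CDS pairs. Ribosomal protein genes had few pairs in all, with 114 and 93 CDS pairs over 45 genes (5.92% and 5.34%). *Rps19* had 14 and 17, *Rpl12* 16 and 6 and *Rps3* 11 and 7. Over the 21 ribosomal protein genes with at least 50 pairs the median CDS share was 2.56%, below the 3.97% over all RNAs with as many pairs. Genes with at least 5 kb of coding sequence supplied 28.4% and 29.2% of all CDS pairs from 690 RNAs.

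Regulators of the stem cell state and of H3K27me3 were described in the same way. Pluripotency genes were 5.62% and 5.22% coding over 23 genes, where *Tet1*, an enzyme that oxidizes methylated DNA, had 142 and 171 CDS pairs and *Tet2* had 68 and 36. Polycomb subunits were 3.05% and 2.76% coding over 28 genes, but this share rested on *Jarid2*, and without it the share was 5.63% of 4035 pairs and 5.23% of 3976, above that of all pcRNAs. That member was left out after the values were seen. Over the 23 subunits with at least 50 pairs the median CDS share was 4.90%. *Jarid2* had 111 CDS pairs in Input and 122 in H3K27me3-RADIP among 7046 and 7961 pairs. *Mga*, a subunit of a variant complex, had 38 and 39, and *Aebp2* had 26 and 20. Developmental transcription factors had 154 and 256 CDS pairs over 52 genes (2.80% and 3.71%). The 3 with the most were *Foxp1* at 23 and 17, *Foxo3* at 16 and 23 and *Tbx3* at 14 and 19, so most of the added pairs lay in other members. Without *Foxn3*, the member with the most pairs, their share was 3.38% and 4.53%. The log2 CDS to intron odds ratio between the libraries had a median of -0.11 over the 11 members tested, beside -0.02 over all RNAs tested.

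CDS pairs were next compared between the libraries with the intron pairs of the same RNAs. There were 4.85 CDS pairs per 100 intron pairs for Input and 4.57 for H3K27me3-RADIP, an odds ratio of 0.942 (interval 0.931 to 0.954) that does not take account of which RNAs were present. Within RNA names, the Mantel-Haenszel odds ratio was 0.989 (0.976 to 1.002), or -0.02 on the log2 scale (-0.03 to 0.00, 2-sided Wald chi-square test on pairs, p = 0.0936). This call depended on the RNAs and pairs used. The log2 odds ratio was -0.0215 without the 10 RNAs with the most CDS pairs (Wald chi-square p = 0.0287), -0.0245 without same-strand overlaps (Wald chi-square p = 0.0472) and 0.00517 for pairs within 100 kb (Wald chi-square p = 0.654). Among 409 RNAs with at least 50 CDS pairs, the log2 ratios of H3K27me3-RADIP to Input had a Pearson correlation of 0.62 and a Spearman correlation of 0.62 between CDS and intron pairs. This correlation is across genes that share both libraries and is a description. The median ratio was 1.04 for CDS and 1.07 for intron pairs. No RNA with at least 100 CDS pairs in both libraries together had a log2 odds ratio beyond 1 in size, out of 148, and the largest size was 0.94, for *Tet2* (68 and 36 CDS pairs, 126 and 129 intron pairs, Fisher's exact test with Benjamini-Hochberg adjustment, adjusted p = 0.545).

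Of 2440 RNAs with at least 10 CDS and 10 intron pairs over both libraries, 2 (0.082%) passed an adjusted p of 0.1 in a 2-sided Fisher's exact test, 1 in each direction (0.041% each). *Cmip*, which encodes an adaptor of T-cell signalling, had 45 CDS pairs in Input and 22 in H3K27me3-RADIP while its intron pairs were 3145 and 4609. Its log2 odds ratio was -1.57 (interval -2.30 to -0.84, Fisher's exact test, Benjamini-Hochberg adjusted p = 0.0363). *Aopep*, an aminopeptidase gene, had 4 CDS pairs in Input and 24 in H3K27me3-RADIP and 837 and 782 intron pairs. Its log2 odds ratio was 2.54 (1.09 to 4, Fisher's exact test, adjusted p = 0.0857). The 24 tags of *Aopep* in H3K27me3-RADIP lay at 16 positions, and 13 of them were in 1 exon at chr13:63014934-63015963. The 22 *Cmip* tags in H3K27me3-RADIP were spread over 21 positions and the 45 in Input over 36. Both calls were lost when repeated positions were counted once, at a q-value limit of 0.01, with pairs up to 100 kb alone, and when a coefficient of variation of 0.1 was added to the counts. Without adjustment 169 RNAs (6.93%) had a p under 0.05. No member of the gene classes above passed at this minimum, among 41 zinc finger genes tested, 15 housekeeping genes, 14 pluripotency genes, 14 Polycomb subunits, 11 developmental transcription factors, 5 immediate early genes, 3 ribosomal protein genes and 464 genes with long coding sequence. With a minimum of 20 CDS and 20 intron pairs, 4 of 1262 RNAs passed, and these were *Cmip*, *Aopep*, *Nktr* and the zinc finger gene *Zfp568*. *Zfp568* had 33 and 7 CDS pairs and 146 and 133 intron pairs (log2 odds ratio -2.03, Fisher's exact test, adjusted p = 0.169 at the minimum of 10). *Nktr* had 30 and 66 CDS pairs and 126 and 110 intron pairs (log2 odds ratio 1.32, Fisher's exact test, adjusted p = 0.169 at the minimum of 10). Both were named after their values were seen.

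RNAs with CDS pairs in 1 library alone had few of them. Of the 8531 RNAs with CDS pairs in either library, 1593 had them in Input alone and 1658 in H3K27me3-RADIP alone. Each set had a median of 2 CDS pairs. Many were not absent from the other library, since 998 of the 1593 and 860 of the 1658 had pairs outside the coding sequence there. The largest number of CDS pairs was that of *Rbmxl2*, a single-exon gene at chr7:107209445-107210916 for an RNA-binding protein of germ cells. It had 25 CDS pairs at 20 positions in Input and 0 pairs of any kind in H3K27me3-RADIP. *Polg2*, a subunit of the mitochondrial DNA polymerase, had 0 and 13, while *Apc2*, *Dqx1* and *Taf1c* had 0 and 12 each. The CDS pairs of *Polg2*, *Apc2* and *Dqx1* each lay in 1 bin.

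CDS tags lay closer to the DNA they were joined to than intron tags did, but not as close as 3′ UTR tags. The distance between tag centres had a median of 22.8 kb for Input and 31.4 kb for H3K27me3-RADIP, against 49.6 and 76.3 kb for intron tags. The medians were 9.75 and 14.2 kb for 3′ UTR tags, 17.5 and 27.4 kb for exons that are not translated, and 33.7 and 45.9 kb for 5′ UTR tags. Pairs over 100 kb apart were 25.9% of the CDS pairs in Input (Wilson interval 25.6 to 26.3) and 31.8% in H3K27me3-RADIP (31.4 to 32.1), against 38.0% and 45.4% for introns. Between the libraries the odds of a CDS pair over 100 kb were 1.45 times higher in H3K27me3-RADIP within RNA names (1.40 to 1.5), and those of an intron pair 1.39 times (1.38 to 1.40). *Trans* CDS pairs numbered 2 in Input and 18 in H3K27me3-RADIP. *Trans* intron pairs were also more numerous in H3K27me3-RADIP. Input held 1121264 intron pairs, with both tags on the same chromosome for 1121232. The H3K27me3-RADIP library held 1218544 intron pairs, with both tags on the same chromosome for 1218233.

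Within the same RNAs, CDS and intron pairs had nearly the same distances. With intron pairs weighted as the CDS pairs of each RNA, 25.1% were over 100 kb apart in Input beside 26.2% of the CDS pairs, and 31.8% beside 32.0% in H3K27me3-RADIP. The Mantel-Haenszel odds ratio of CDS against intron was 1.09 in Input (1.06 to 1.11, Wald chi-square test on pairs, p = 6.74e-12) and 1.01 in H3K27me3-RADIP (0.992 to 1.04, p = 0.212). The direction depended on the measure. Over 1 Mb the odds ratio was 0.802 in Input (0.747 to 0.862) and 0.830 in H3K27me3-RADIP (0.785 to 0.877). With distance taken from the gene body in place of the RNA tag, the log2 odds ratio at 100 kb was -0.17 in Input and -0.19 in H3K27me3-RADIP. The median distance of the CDS pairs exceeded that of the intron pairs for 708 of 1322 RNAs in Input and for 639 of 1310 in H3K27me3-RADIP.

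**Figure D5:**
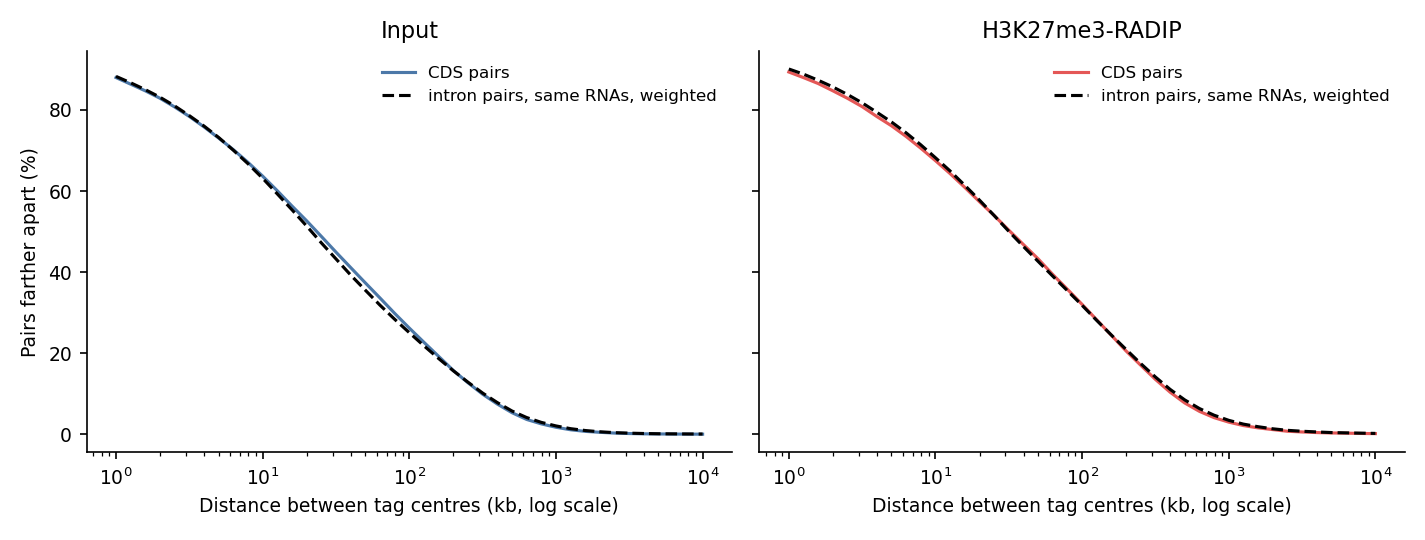
Share of pairs farther apart than a given distance between tag centres (logarithmic axis) for CDS pairs (solid) and intron pairs of the same RNAs weighted as their CDS pairs (dashed) in Input (left) and H3K27me3-RADIP (right). The curves lie within about a percentage point of each other at 100 kb, with 26.2% and 25.1% in Input and 32.0% and 31.8% in H3K27me3-RADIP.

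Over all RNAs, CDS pairs over 1 Mb apart numbered 922 in Input and 1637 in H3K27me3-RADIP. Of the RNAs with the most pairs over 1 Mb apart or in *trans*, *Dst* had 47 such CDS pairs in Input and 146 in H3K27me3-RADIP, *Macf1* 57 and 114, *Mcph1* 41 and 100, *Exoc4* 69 and 79, and *Tenm4*, which encodes a teneurin of the cell surface, 46 and 36. *Ankrd11*, with 30 and 52, had the same total as *Tenm4*. All of these 6 but *Tenm4* had more in H3K27me3-RADIP. The median distance of the *Dst* CDS pairs was 133 kb for Input and 229 kb in H3K27me3-RADIP, with 86.4 and 131 kb for its introns. For *Tenm4* it was 616 and 264 kb for CDS pairs and 512 and 737 kb for introns. At the other end, the histone RNA *H1f5* had its 25 and 13 CDS pairs in 1 bin, at a median of 0.359 and 0.317 kb.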

How the data were processed

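The deposited tables list significant RNA–DNA pairs, 1 line per pair, and the value used here is the q-value that the authors gave each combination of RNA and 25-kb bin from an adapted CHiCANE fit, keeping q up to 0.1. The authors mapped tags to mm10 with BWA at a mapping quality of 37, annotated RNA tags with GENCODE and merged the libraries of each condition. The submitters' processing notes name BWA 0.7.15-r1140, STAR 2.5.0a and CASAVA 1.8.2, and the methods describe STAR for separate RNA-seq reads, not for these tags. Lines of the tables were counted per RNA here.

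Tags were counted in Python 3.11.15 (pandas 2.3.3, numpy 2.4.6), tests were made with scipy 1.17.1 and plots with matplotlib 3.10.9. Shares were given Wilson intervals and compared by chi-square tests. Odds ratios within RNA names were pooled by the Mantel-Haenszel method and tested by a Wald chi-square test on pairs. CDS to intron ratios of single RNAs were tested by Fisher's exact test with Benjamini-Hochberg adjustment, and the code was tested on simulated data. Gene structure came from GENCODE M21 and sequence from GRCm38.p6 (mm10). All tags of 20 of 20 chromosomes lay inside this assembly.

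The members, gene lists and tests were chosen with earlier results of these data known. RNAs were named as the 10 with the most CDS pairs, the 10 with the highest CDS share among those with at least 50 pairs, those passing the Fisher test, the 5 with the most CDS pairs over 1 Mb or in *trans*, the 5 with the most in 1 library only, the 5 exons with the most tags and the leading 3 of each list. Ribosomal S6 kinases, which share the symbol prefix of ribosomal proteins, were left out of that list after their values were seen. Alternatives were another q-value limit, repeated positions counted once, leaving out the top 10 RNAs, gene identifiers, pairs within 100 kb, equal weights, RNAs without same-strand overlap, other minimum numbers, added variation, other distances, coding edges and, added after seeing the data, each gene list without its member with the most pairs.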

Additional observations from a re-analysis of the deposited data

Results flagged for a closer look

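The comparison of CDS with intron distances differed between the libraries. The log2 odds ratio of a CDS against an intron pair over 100 kb, within RNA names, was 0.12 for Input and 0.02 for H3K27me3-RADIP, which differed by -0.10 (interval -0.15 to -0.05, p = 3.51e-05, Wald chi-square test on the pairs of the 2 merged libraries). It was flagged because the same contrast gave different values in the 2 merged libraries. At a limit of 1 Mb the difference was 0.05 (-0.08 to 0.18, Wald chi-square p = 0.462), and with distance from the gene body -0.02 (p = 0.483). It was -0.113 at q up to 0.01 (Wald chi-square p = 1.96e-05), -0.0985 with repeated positions counted once (p = 9.82e-05), -0.0989 without the 10 RNAs with the most CDS pairs (p = 8.96e-05), -0.0995 by gene identifier (p = 3.70e-05) and -1.23 percentage points with equal weights (p = 0.00653). Its source was not tested.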

How the results depend on the processing

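The libraries were merged before deposit, so counting error is the only error available and leaving out a replicate could not be done. No paired analysis was possible because each condition is a single merged table in which replicates carry no number. The CDS share stayed lower in H3K27me3-RADIP in all 3 alternatives, by -0.248 to -0.250 percentage points. For the log2 CDS to intron odds ratio within RNA names, the Wald chi-square p was 0.0287 without the 10 RNAs with the most CDS pairs (-0.0215) and 0.0472 without same-strand overlaps (-0.0245), and pairs within 100 kb gave 0.00517 (p = 0.654). The number of RNAs whose ratio differed was 0 at q up to 0.01, 0 with repeated positions counted once, 0 within 100 kb and 0 with added variation, with 151, 100, 140 and 104 at an unadjusted p under 0.05, and 4 with a minimum of 20, which were *Cmip*, *Aopep*, *Nktr* and *Zfp568*. RNAs that were mostly coding numbered 19 and 21 with at least 20 pairs, and 91 and 88 with shares over CDS and intron alone. Tags crossing an edge made up 10.03% and 10.5% without the top 10 RNAs, and 12.7% and 12.8% at coding edges. For CDS against intron pairs over 100 kb, the log2 odds ratio in H3K27me3-RADIP was 0.0458 at q up to 0.01 (Wald chi-square p = 0.0112) and -0.00153 without the top 10 RNAs. From the gene body it was -0.17 for Input and -0.19 for H3K27me3-RADIP, and -0.32 and -0.27 at 1 Mb. The difference between the libraries was then -0.0187 and 0.0491, and it kept its direction and side of the threshold in the other 5 alternatives. With equal weights the share differed by -0.21 percentage points in H3K27me3-RADIP and by 1.02 in Input. Leaving out the member with the most pairs, an alternative chosen after seeing the data, changed the CDS share of the gene lists other than the Polycomb subunits by 0.968 to 1.22 times. Beyond these constructions the causes were not tested.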
